A study of Homo sapiens with 58 samples.

Results

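Chromatin accessibility was examined at the regulatory elements (REs) of 33 collagen genes that do not belong to the cartilage set, in human cranial neural crest cells (CNCCs) in which the amount of the transcription factor SOX9 was lowered in steps. An RE here is a reproducible ATAC-seq peak, a stretch of DNA open to the Tn5 transposase. An RE was taken as a member when its midpoint lay inside the body of one of these genes or within 50 kb of one of its start sites in GENCODE 44 (hg38), and an RE near several of the genes was given to the nearest start site. The rule used no accessibility value. It found 736 of 151457 REs, with 8 to 68 for each of the 33 genes. Of these, 476 lay in gene bodies and 260 outside them, and for 618 the nearest start site of any coding gene was that of a member gene. REs were numbered along the chromosome within each gene, so COL13A1-RE3 is the third from the left at COL13A1.

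All cells came from the H9 human embryonic stem cell line, differentiated in vitro into CNCCs before any compound was added. In the tagged cells the SOX9 protein carried an FKBP12-F36V domain at its own locus, through which the heterobifunctional molecule dTAGV-1 leads to its degradation. Tagged cells were 2 edited clones, S9CC13 with 4 replicates and S9CC47 with 3, spread over 6 differentiation batches, so that clone and differentiation are the only sources of replication. They were treated for 48 h with 0, 0.5, 1.6, 5, 16 or 500 nM dTAGV-1 (7 samples each), which left SOX9 at 100, 77.9, 51.7, 25.8, 8.14 and 0.95% of the untreated level by the labels. Untagged (WT) H9 cells, in which dTAGV-1 has no tagged SOX9 to act on, were given 0 or 500 nM for 48 h (2 samples each). A time course of other samples held tagged and WT cells under vehicle for 24 h or 500 nM for 3 h or 24 h (2 samples of each kind, replicates R4 and R5). The labels give clone S9CC13 for both tagged replicates, but the columns of the deposited table name S9CC47 for R5, so the clone of R5 is uncertain. Batch R5 is also a batch of the dose series. Across the 58 samples, the reads in REs numbered 22.91 to 81.04 M, and the median count of a member RE in a sample ranged from 61 to 242.

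Collagens are proteins whose chains wind into a triple helix, and they make up most of the fibrous extracellular matrix. Fibrillar collagens (types I, III and V among them) form the fibrils of bone, skin and tendon, network collagens line basement membranes, and others coat fibrils, anchor epithelia or span the cell membrane. Neural crest cells secrete and migrate through such matrix and give rise to much of the bone, cartilage and connective tissue of the face, where SOX9 is known as an activator of the cartilage collagens, which were left out here. SOX9 binds a short DNA core through its HMG domain, and in cartilage enhancers often binds as a dimer to a pair of cores that face each other.

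The DNA of the REs was searched on both strands for the SOX cores ACAAAG and ACAATG. At least 1 core was found in 328 of the 736 member REs (44.6%, against 49.6% of all REs). Cores facing each other with a gap of 3 to 5 bases were found in 3 member REs (0.408%, against 0.217% of all REs). These 3 windows are shown first because all 3 REs were lower at both 3 h and 48 h of depletion, and they were picked after their values were seen. Capitals mark the cores (a core on the minus strand reads CTTTGT or CATTGT), and all sequences are the plus strand of hg38.
COL1A1-RE9, chr17:50181248-50181323, 2614 bp downstream of the gene: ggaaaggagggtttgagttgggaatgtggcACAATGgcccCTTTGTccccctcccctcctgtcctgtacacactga
COL24A1-RE21, chr1:86197277-86197352, 40378 bp upstream: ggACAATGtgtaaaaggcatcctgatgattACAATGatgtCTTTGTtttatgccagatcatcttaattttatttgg
COL27A1-RE1, chr9:114108123-114108198, 47387 bp upstream: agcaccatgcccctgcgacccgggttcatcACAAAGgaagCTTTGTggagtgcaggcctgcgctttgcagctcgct
The next 6 windows hold single cores, the one nearest the middle of the RE, from REs that fell by the largest amounts at 500 nM and are described below. COL28A1-RE15 and COL24A1-RE7, whose losses were also among the largest, held no core and are not shown.
COL13A1-RE3, chr10:69776732-69776797, in an RE 24911 bp upstream: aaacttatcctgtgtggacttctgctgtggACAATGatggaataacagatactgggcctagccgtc
COL25A1-RE34, chr4:109251618-109251683, intron: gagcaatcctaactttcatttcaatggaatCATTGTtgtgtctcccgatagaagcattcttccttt
COL18A1-RE16, chr21:45466930-45466995, intron: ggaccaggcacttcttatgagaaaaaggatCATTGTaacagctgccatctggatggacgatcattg
COL18A1-RE17, chr21:45469876-45469941, intron: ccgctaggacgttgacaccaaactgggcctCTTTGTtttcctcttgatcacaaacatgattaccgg
COL17A1-RE11, chr10:104076885-104076950, intron: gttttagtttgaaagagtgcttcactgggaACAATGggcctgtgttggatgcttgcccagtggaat
COL25A1-RE27, chr4:109161291-109161356, intron: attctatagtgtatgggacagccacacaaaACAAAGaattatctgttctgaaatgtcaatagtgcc

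The labelled cell type was checked at promoter REs before the results. The promoters of 10 of 10 neural crest genes (TFAP2A, TWIST1, ALX1 and others) held an RE, and their summed accessibility was 351 to 508 CPM (read counts scaled to library size) in the 7 untreated tagged samples. Sums for markers of other cell types were lower but not 0, at 117 to 192 CPM for chondrocyte, 89.2 to 151 for pluripotency, 53.2 to 61.3 for endothelial, 33.7 to 51.1 for epithelial, 33.9 to 39.6 for osteoblast and 24.7 to 36.2 for melanocyte or glia genes. These lists had only 6 genes each, of which 3 to 6 held a promoter RE, so the sums are not on one scale. The median per gene with a promoter RE was 42.6 CPM for neural crest, 26.6 for pluripotency, 25.4 for chondrocyte and 2.37 to 12 for the other lists. The most open chondrocyte promoter had 61.1 CPM. A promoter can be open without its gene being expressed. At 500 nM the neural crest sum was 372 to 511 CPM and the neural progenitor sum 67.5 to 91.4 CPM, against 48.1 to 79.9 CPM at 0 nM, with 2 of its 6 genes called higher. The part of this shift in the collagen results was not tested.

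Depletion of SOX9 to its lowest level for 48 h changed accessibility near all of these collagen genes but COL5A3 and COL6A1, in both directions, and the largest changes were losses. Of the 736 member REs, 113 fell and 78 rose at 500 nM against 0 nM (26% called, against a background of 24.1% of all 151457 REs; edgeR's quasi-likelihood test with differentiation batch as a covariate, Benjamini-Hochberg adjusted p under 0.05 over all REs). By direction, 15.4% fell and 10.6% rose, against backgrounds of 13.9% and 10.2%, so the members as a whole changed about as often as other REs. Their median log2 fold change was 0.01, and 0.02 over all REs. Without the batch term the test called 76 members (10.3%, against 9.97% of all REs). The CPM of the 7 treated and 7 untreated samples did not overlap for 29 members that were lower (3.94%, background 3.36%) and 7 that were higher (0.951%, background 0.677%). Fewer cells with an RE open and a less open RE in every cell cannot be told apart in these bulk samples.

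The calls were spread unevenly over the collagen classes, where the background over all REs was 24.1% (13.9% lower and 10.2% higher). Differences between classes were not tested. The highest share was at COL7A1, the only anchoring fibril gene, where 6 REs fell and 1 rose of 16 (43.8%). For 5 of those 6 losses the nearest coding start belonged to another gene. The transmembrane collagens had the most REs that fell, 37 of 170 with 11 higher (28.2%), and the multiplexins COL15A1 and COL18A1 had 13 lower and 2 higher of 48 (31.2%). Basement membrane collagens were mixed, with 13 lower and 15 higher of 87 (32.2%), as were the short-chain network collagens, with 5 lower and 7 higher of 37 (32.4%). Fibrillar collagens had 20 lower and 14 higher of 163 (20.9%), fibril-associated collagens 7 lower and 11 higher of 107 (16.8%), the beaded filament collagens of type VI 2 lower and 7 higher of 50 (18%), and COL26A1 with COL28A1 10 of each in 58 (34.5%).

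By gene, the REs that fell were most numerous at COL25A1 (15 of 38), COL13A1 (11 of 47) and COL18A1 (10 of 27), followed by COL23A1 (7 of 68), COL27A1 (7 of 46) and COL4A2 (7 of 34). REs that rose were most numerous at COL4A2 (8 of 34), COL4A6 (6 of 23), COL6A2 (6 of 17) and COL28A1 (6 of 20). All 10 calls at COL18A1 were lower, whereas at COL10A1, COL8A1 and COL22A1 the 3 calls each were higher. COL5A3 and COL6A1 had none among 10 and 17 REs. The background was 13.9% lower and 10.2% higher. Genes with more REs had more chances of a call, and REs at 1 gene share neighbouring DNA.

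**Figure D1:**
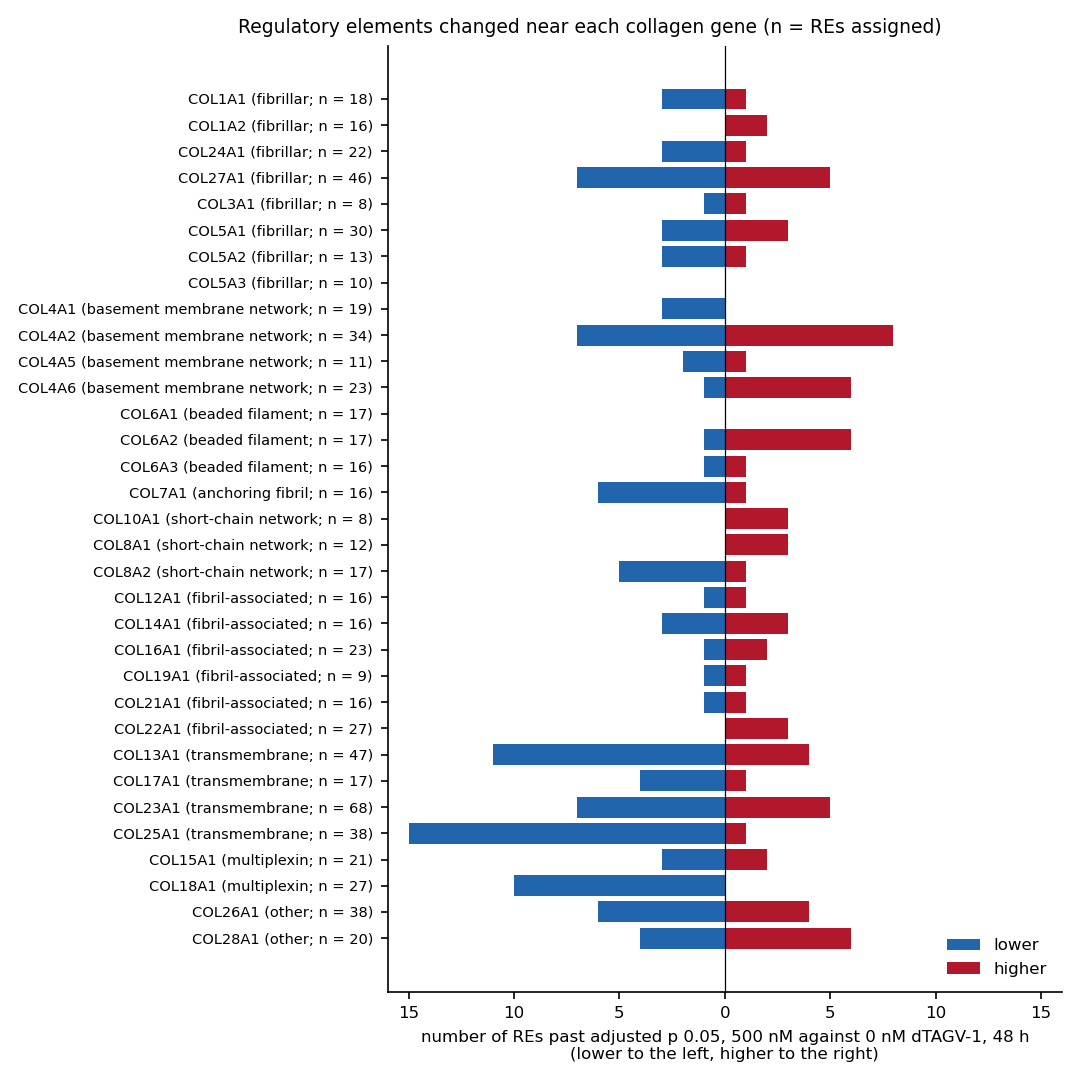
Number of REs past an adjusted p of 0.05 at 500 nM against 0 nM dTAGV-1 after 48 h (horizontal axis, lower in blue to the left, higher in red to the right) for each of the 33 collagen genes, grouped by class, with the number of REs assigned in brackets. COL25A1 has the longest blue bar (15 REs) and COL4A2 the longest red bar (8 REs), and COL18A1 has blue only.

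Among the transmembrane collagens, which span the cell membrane and can be shed, COL13A1 held the RE with the largest loss. COL13A1, a collagen of cell adhesion sites and the neuromuscular junction, had this RE upstream of the gene (COL13A1-RE3, chr10:69776719-69777219), and its CPM at 0 nM was 13.2, 27.5 and 29.9 (lowest, median and highest of 7 samples), against 1.61, 2.41 and 2.91 at 500 nM. Every treated sample was far under every untreated one. The log2 fold change was −3.18 ± 0.12 (SE; adjusted p = 3.3e-16, edgeR). In WT cells the 2 untreated samples were at 29.5 and 32 CPM and the 2 treated at 33.6 and 35.8 CPM, so no loss was seen there, and the tagged and WT effects differed by −3.35 on the log2 scale (adjusted p = 1.4e-14, edgeR interaction term). The other 10 REs that fell at COL13A1 were smaller changes, and 5 of the 11 had a positive log2 fold change at 3 h.

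COL25A1, a brain collagen known for its part in motor nerve growth and found in amyloid plaques, had 3 of the REs with the largest losses, all in introns. COL25A1-RE34 (chr4:109251371-109251871) was at 1.6, 4.29 and 6.3 CPM at 0 nM and at 0.27, 0.296 and 1.12 CPM at 500 nM, with the highest treated sample, S9CC47_R5, set apart from the other six but still under all untreated samples. Its log2 fold change was −3.17 ± 0.21 (adjusted p = 1.1e-11, edgeR). The adjoining COL25A1-RE26 and COL25A1-RE27 fell by 1.6 ± 0.09 and 1.81 ± 0.16 on the log2 scale. The first of them (chr4:109160403-109160903) went from 11.8, 17.2 and 21.2 CPM to 3.7, 5.99 and 7.69 CPM. The second (chr4:109160953-109161453) went from 2.2, 3.88 and 6.28 CPM to 0.822, 1.2 and 1.41 CPM. Neither pair of groups overlapped, and because the REs are so close their reads may come from one open stretch.

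COL17A1, a component of the hemidesmosomes that fix epithelia to their basement membrane, had an intronic RE (COL17A1-RE11, chr10:104076729-104077229) at 2.08, 3.32 and 4.83 CPM at 0 nM and 0.506, 0.909 and 1.01 CPM at 500 nM. The groups did not overlap, and the log2 fold change was −1.98 ± 0.16 (adjusted p = 4.2e-10, edgeR). COL23A1, the transmembrane collagen with most REs, had 7 lower and 5 higher. A pair of its intronic REs stood among the largest gains. COL23A1-RE51 (chr5:178477214-178477714) rose from 1.16, 1.87 and 2.2 CPM to 2.25, 3.37 and 4.43 CPM (log2 fold change 0.90 ± 0.14, adjusted p = 3e-05, edgeR). COL23A1-RE55 (chr5:178520433-178520933) rose from 0.977, 1.52 and 1.81 CPM to 2.27, 2.5 and 3.22 CPM (0.81 ± 0.15, adjusted p = 0.00027, edgeR). Treated and untreated samples did not overlap at either.

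The multiplexin COL18A1, a basement membrane proteoglycan core whose end fragment is endostatin, lost accessibility at a pair of neighbouring intronic REs. At COL18A1-RE17 (chr21:45469503-45470003), one of the more open member REs, CPM was 32.2, 37.9 and 43.8 at 0 nM and 6.13, 7.59 and 8.83 at 500 nM. At COL18A1-RE16 (chr21:45466711-45467211) it was 3.52, 7.09 and 14.4 CPM and 0.753, 1.04 and 2.33 CPM. In both cases all treated samples lay under all untreated ones. The log2 fold changes were −2.32 ± 0.09 and −2.56 ± 0.14 (adjusted p = 7.7e-16 and 4.8e-13, edgeR). COL18A1-RE15 (chr21:45458634-45459134) fell by 1.30 ± 0.16, in 6 of 7 replicates. COL15A1, the other multiplexin, had an intronic RE with the largest named gain (COL15A1-RE14, chr9:98988227-98988727), which went from 0.546, 0.636 and 1.14 CPM to 0.759, 1.72 and 2.5 CPM. It was higher in 7 of 7 replicates though the groups overlapped (log2 fold change 1.2 ± 0.17, adjusted p = 8.1e-06, edgeR), and its difference from WT cells did not pass the test (adjusted p = 0.22).

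Among the fibrillar collagens the REs with large losses were at the minor and accessory types and at COL3A1. COL3A1 encodes type III collagen of distensible tissues such as vessel wall, and COL3A1-RE8 (chr2:189022369-189022869), 9873 bp downstream of the gene, was at 12.2, 22.9 and 32.7 CPM at 0 nM and at 3.9, 6.13 and 11.3 CPM at 500 nM. The groups did not overlap (log2 fold change −1.65 ± 0.11, adjusted p = 2.2e-11, edgeR). COL5A2 encodes a chain of type V collagen, which starts fibrils and limits their width, and 3 of its 13 REs fell by 1.26 to 1.61. The largest of these losses, at the intronic COL5A2-RE1 (chr2:189088804-189089304), was from 1.45, 2.8 and 4.88 CPM to 0.409, 0.856 and 1.41 CPM (−1.61 ± 0.22, adjusted p = 3.3e-06, edgeR), with no overlap. COL24A1, a minor fibrillar collagen, had an intronic RE (COL24A1-RE7, chr1:85955206-85955706) that went from 1.16, 1.76 and 2.55 CPM to 0.242, 0.592 and 0.942 CPM. Those groups did not overlap either (−1.67 ± 0.24, adjusted p = 6.4e-06, edgeR).

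The genes of type I collagen, COL1A1 and COL1A2, the main fibril collagen of bone and skin, showed small changes. COL1A1 had 3 lower REs, with log2 fold changes of −0.44 to −0.34, and 1 higher of 18. Among them was COL1A1-RE9, whose facing cores are printed above, at a mean of 20.2 CPM at 0 nM and 14.9 CPM at 500 nM. It was lower in 7 of 7 replicates (−0.44 ± 0.09, adjusted p = 0.00053, edgeR), and the groups overlapped. COL1A2 had 2 higher REs of 16, COL1A2-RE4 (0.66 ± 0.15) and COL1A2-RE14 (0.60 ± 0.17), both outside the gene, and none lower. The other REs with facing cores fell by more. COL24A1-RE21 went from a mean of 11 to 5.2 CPM (−1.02 ± 0.14, adjusted p = 3.5e-06, edgeR) and COL27A1-RE1 from 15.7 to 10.5 CPM (−0.57 ± 0.09, adjusted p = 1.8e-05, edgeR), although the nearest coding gene to the last is KIF12.

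The basement membrane collagens of type IV form a mesh under epithelia and around vessels. COL4A1 and COL4A2 stand head to head, and their shared promoter RE was assigned to COL4A2. At COL4A2, COL4A2-RE28 (chr13:110528863-110529363, 15904 bp downstream) fell from a mean of 8.88 to 2.96 CPM (log2 fold change −1.53 ± 0.13) and the intronic COL4A2-RE17 from 1.76 to 0.656 CPM (−1.40 ± 0.17), while its 8 higher REs rose by 0.36 to 0.73. COL4A6 on the X chromosome had 6 of its 7 calls higher. The largest was the intronic COL4A6-RE10 (chrX:108217794-108218294), at 0.842, 1.49 and 2.62 CPM untreated and 1.59, 2.56 and 5.05 CPM treated, which overlapped (0.83 ± 0.16, adjusted p = 0.00027, edgeR).

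Among the type VI collagens, which form beaded filaments around cells, 6 REs of COL6A2 rose by 0.22 to 0.55, and 1 fell. Of the short-chain collagens, COL8A2, a main component of Descemet's membrane in the cornea, had 5 lower REs. COL8A2-RE12 (chr1:36133963-36135136) lay 9328 bp upstream, nearest to the coding gene TRAPPC3, and went from 57.4, 82.6 and 88.7 CPM to 26.6, 38.1 and 44.7 CPM, with no overlap (−1.05 ± 0.07, adjusted p = 2.2e-11, edgeR). COL8A1, its partner in type VIII collagen, had 3 higher REs, among them the exonic COL8A1-RE6 (chr3:99703163-99703663), which went from 0.611, 0.792 and 1.17 CPM to 1.19, 1.52 and 2.3 CPM with no overlap (1.02 ± 0.16, adjusted p = 2.2e-05, edgeR). COL10A1, the collagen of hypertrophic cartilage, had 3 higher REs of 8, of 0.34 to 0.68, all outside the gene, and 2 of the 3 were nearest to other coding genes.

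COL7A1, whose product anchors the epidermis to the dermis, had 6 lower REs that changed late and modestly. Their log2 fold changes at 48 h were −0.92 to −0.39, all 6 had a positive log2 fold change at 3 h, and 0 were called at 3 h or 24 h. For 5 of the 6 the nearest coding start belonged to another gene, such as SLC26A6 or CELSR3, so they are COL7A1 REs by distance only, and none of the 6 differed from WT cells by the test at 48 h (adjusted p 0.08 to 0.83).

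Of the fibril-associated collagens, COL14A1 had an RE among the largest losses and another among the largest gains, both intronic. COL14A1-RE11 went from 3.68, 6.13 and 8.07 CPM to 0.75, 2.1 and 3.2 CPM without overlap (−1.6 ± 0.17, adjusted p = 8.8e-08, edgeR), and COL14A1-RE16 from 0.73, 1.34 and 1.75 CPM to 1.56, 2.5 and 5.92 CPM with overlap (1.17 ± 0.15, adjusted p = 1.1e-06, edgeR). COL22A1, a collagen of tissue junctions, rose at COL22A1-RE27 from 0.977, 1.66 and 2.66 CPM to 1.82, 2.88 and 4.5 CPM (0.82 ± 0.15). COL19A1-RE9 rose from 0.654, 0.792 and 1.06 CPM to 1.02, 1.65 and 2.72 CPM (1.03 ± 0.18, adjusted p = 0.00012, edgeR), overlapped, and was nearest to the start of the cartilage collagen gene COL9A1. COL28A1, a collagen found near peripheral glia, had an intronic RE that almost closed, COL28A1-RE15 (chr7:7517843-7518343), at 0.736, 2.05 and 3.09 CPM untreated and 0.135, 0.295 and 0.435 CPM treated, with no overlap (−2.81 ± 0.25, adjusted p = 3.8e-09, edgeR).

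The 12 largest losses named here ran from −3.18 to −1.6 and the 8 largest gains named here from 0.81 to 1.2. Both sets needed a mean count of at least 30 at 0 nM. REs that open from a low count pass that limit less easily, so the sizes of the 2 sets cannot be compared. A called gain of 1.40 at COL28A1 was outside the set of 8. The 12 losses were also called at 16 nM and at 5 nM, at 3 h and at 24 h, and all 12 differed from WT cells at 48 h. Of the 8 gains, 7 were called at 16 nM, 0 at 5 nM, 0 at 3 h and 5 at 24 h, and 5 differed from WT cells at 48 h. A SOX core was in 8 of the 12 and in 3 of the 8. Both sets were chosen by the size of the 500 nM change.

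REs near start sites were called less often than other REs. Across all members, 10 of 132 REs within 1 kb of any start site fell (7.58%) and 10 rose (7.58%), against 103 (17.1%) and 68 (11.3%) of 604 elsewhere. The whole table had the same order, with 8.3% and 6.33% of 34350 REs near start sites and 15.6% and 11.3% of 117107 elsewhere. Of the 68 members within 1 kb of a start site of their own gene, 7 fell (10.3%) and 2 rose (2.94%). The log2 fold changes of these 68 ran from −0.92 to 0.45. A promoter RE, the most open RE within 1 kb of a start site of its own gene, was found for 30 of the genes, with a mean of 1.38 to 48.5 CPM at 0 nM. Their log2 fold changes ran from −0.57 to 0.33, and 26 of the 30 were not called. The most open were those of COL1A1 (COL1A1-RE11, chr17:50200083-50200964), at 42.2, 48.1 and 53.3 CPM untreated and 42.5, 48.6 and 59.8 CPM treated, and of COL1A2 (COL1A2-RE11, chr7:94394510-94395010), at 41.2, 48.3 and 53.4 CPM and 46.3, 49.6 and 53.8 CPM. Both pairs of groups overlapped almost fully, with log2 fold changes of 0.04 ± 0.05 and 0.05 ± 0.05.

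Among the 30, the 2 promoter REs that fell were at COL18A1 and COL25A1, genes that also lost distal REs. COL18A1-RE7 (chr21:45403999-45404499) went from 2.95, 3.13 and 3.52 CPM to 1.8, 1.97 and 2.72 CPM without overlap (−0.57 ± 0.12, adjusted p = 0.001, edgeR). COL25A1-RE36 (chr4:109302741-109303560) went from 34.7, 46.8 and 55.1 CPM to 28.7, 35 and 47.2 CPM with overlap (−0.33 ± 0.07, adjusted p = 0.00077, edgeR). The 2 that rose were COL13A1-RE9 (chr10:69801707-69802207; 0.33 ± 0.09, adjusted p = 0.0082, edgeR) and COL24A1-RE18 (chr1:86156723-86157223; 0.23 ± 0.06, adjusted p = 0.011, edgeR), and both overlapped. At COL13A1 the promoter RE thus rose while the upstream COL13A1-RE3 fell. None of these 4 promoter REs differed from WT cells by the test at 48 h (adjusted p 0.11 to 0.57, edgeR interaction term). In WT cells COL18A1-RE7 had a log2 fold change of −0.30 ± 0.15 and was not called.

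**Figure D2:**
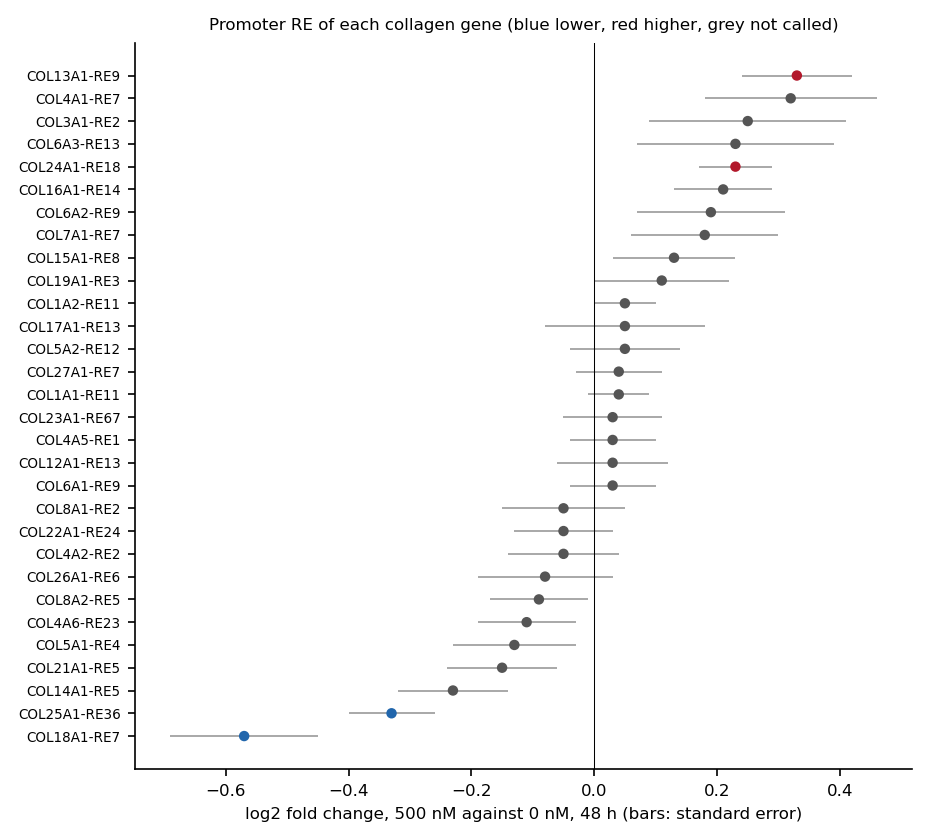
Log2 fold change at 500 nM against 0 nM after 48 h (horizontal axis, bars are standard errors) of the promoter RE of each of 30 collagen genes. Blue points fell, red points rose and grey points were not called, and all lie between −0.57 and 0.33, far from the −3.18 of COL13A1-RE3.

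The doses between 0 and 500 nM show how far SOX9 had to fall before these REs changed. All doses were compared with the same 0 nM samples. At 16 nM (8.14% SOX9) 74 members fell and 51 rose (17%, background 16.2%, or 9.12% lower and 7.12% higher), at 5 nM (25.8% SOX9) 32 fell and 4 rose (4.89%, background 5.32%, or 4.24% and 1.08%), and at 1.6 nM and 0.5 nM (51.7% and 77.9% SOX9) 0 were called by edgeR (background 0.0383% and 0%). At an unadjusted p under 0.05 there were 36 and 18 members at these lowest doses, against 7809 and 5219 of all REs. DESeq2 called 1 and 0 members. With the replicate as a block, which is warranted because a replicate is 1 clone in 1 differentiation, the calls were 202 at 16 nM (113 lower, 89 higher), 68 at 5 nM (45 lower, 23 higher) and 8 at 1.6 nM. These were 27.4, 9.24 and 1.09% of the members, and the same fit called 26.1, 8.53 and 1.03% of all REs. These 8 were COL25A1-RE34, COL3A1-RE8, COL24A1-RE7, COL13A1-RE43 and COL18A1-RE17, lower, and COL27A1-RE20, COL26A1-RE9 and COL4A2-RE19, higher. The 5 nM count also moved with single samples, to 21 without S9CC47_R5, 22 without S9CC13_R10 and 95 without S9CC47_R6 (2.85, 2.99 and 12.9%), where all REs gave 3.55, 3.99 and 11.4%. The 1.6 nM count was 1 without S9CC13_R6 and 4 without S9CC47_R6 (0.136 and 0.543%, against 0.302 and 0.646% of all REs), and the 0.5 nM count was 4 without S9CC13_R6 (0.543%, against 0.657%).

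The 113 REs that fell had covered 1.58 ± 10.1% of their 500 nM change at the lowest dose (mean ± SD of 7 replicates), then 14.2 ± 9.1, 44.6 ± 14.3 and 66.3 ± 15.4% as the dose rose to 16 nM. The 78 that rose had covered 3.54 ± 7.62, 14.9 ± 10.5, 43.8 ± 13.3 and 73.6 ± 27.5%. At each dose the means of the falling and rising REs lay within the spread of the replicates of one another. At the lowest dose both means were smaller than their SD.

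A Hill curve fitted to each called RE gave its ED50, the SOX9 level in percent at which it stood midway between its 0 nM and 500 nM values. The median ED50 over the 191 called members was 18.6%, equal to the 18.6% of all called REs, and 149 of them (78%, against 74.5% of all) changed midway only under 30% SOX9. Another 25 lay at 30 to 40% and 17 above 40%. COL25A1-RE34 was among the more sensitive, with an ED50 of 44.7% (41.9 to 47.6% as each replicate was left out). Its CPM fell from a median of 4.29 untreated through 3.45, 2.63 and 1.18 to 0.614 at 16 nM. COL13A1-RE3, with a like total loss, had an ED50 of 25.6% (24.5 to 26.7%) and medians of 27.5, 25.4, 21.4, 12.6 and 5.07 CPM. These 2 leave-one-out ranges did not overlap, but such fits share most of their samples, and the difference in ED50 was not tested. On log2 CPM the values were lower, at 27.9% for COL25A1-RE34 and 12.6% for COL13A1-RE3, in the same order.

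The highest ED50 values among REs lower at both 3 h and 48 h were at COL24A1-RE7 (49.7%, range 45.7 to 55.3%), COL21A1-RE8 (49.7%, 39.3 to 53%) and COL19A1-RE5 (48.7%, 43.7 to 55.3%). On log2 CPM the first of them had 37.7%. COL21A1 and COL19A1 are minor fibril-associated collagens, and their intronic REs had fallen by 1.6 ± 0.16 and 1.6 ± 0.18 at 3 h but by only 0.38 ± 0.10 and 0.79 ± 0.14 at 48 h. At COL21A1-RE8 (chr6:56278096-56278915) the dose medians were 8.13, 7.7, 7.05, 6.16, 6.86 and 5.86 CPM from 0 to 500 nM, and the groups overlapped. The lowest were COL15A1-RE7 (9.78%, 4.93 to 16.3%), COL23A1-RE28 (11.6%, 9.58 to 13.8%) and COL25A1-RE15 (15.3%, 11.1 to 31.7%). All 3 were small losses of 0.39 to 0.46, and the wide ranges at COL15A1-RE7 and COL25A1-RE15 show that single replicates set those values: the 500 nM call at COL15A1-RE7 was lost without S9CC13_R10, and that at COL25A1-RE15 without S9CC13_R10, S9CC47_R5 or S9CC47_R8.

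**Figure D3:**
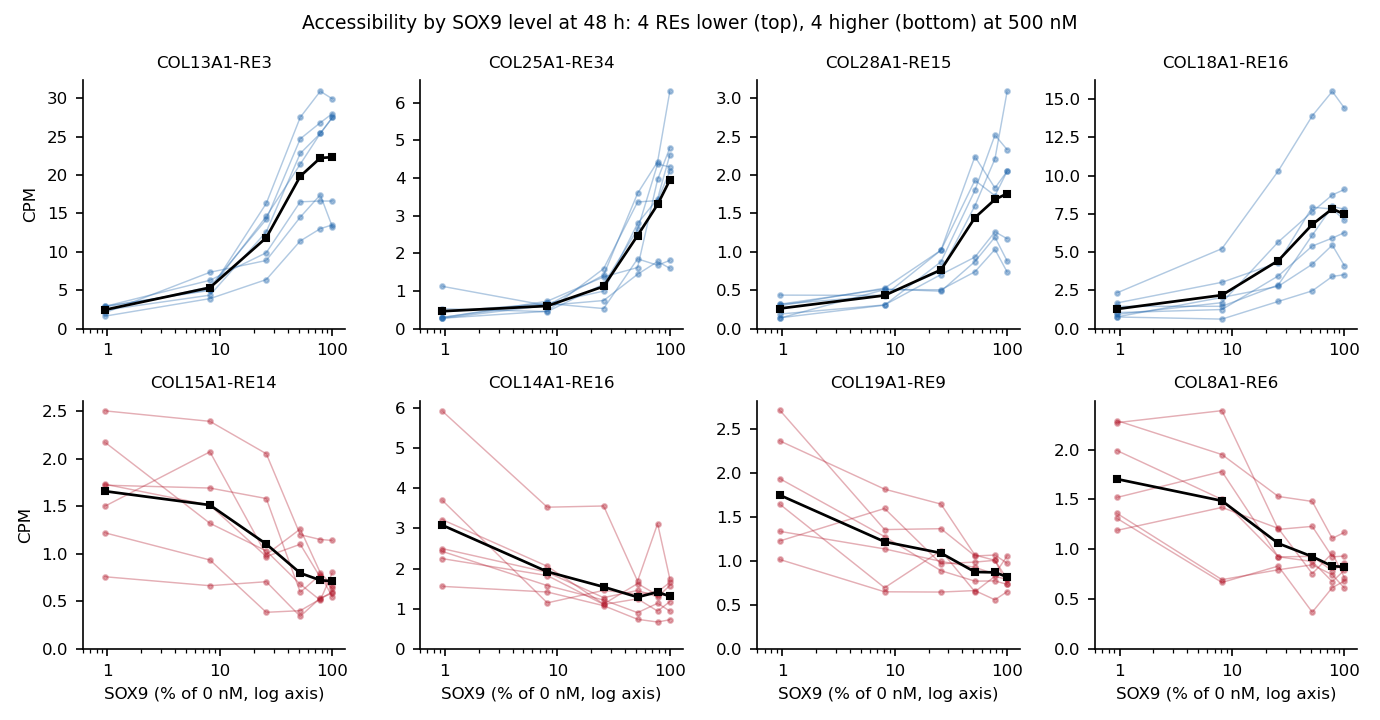
CPM (vertical axis) against SOX9 level in percent of the 0 nM level (horizontal log axis) after 48 h for the 4 REs with the largest losses (top) and the 4 with the largest gains (bottom) among those named. Thin lines join the samples of 1 replicate, black squares are means of 7, and COL25A1-RE34 falls already at 51.7% SOX9 where COL18A1-RE16 remains near its untreated level.

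The time course asked which REs changed within 3 h, soon after SOX9 was lost. In tagged cells 56 members fell and 9 rose at 3 h (8.83%, background 8.34%, or 7.43% lower and 0.912% higher), and 61 fell and 42 rose at 24 h (14%, background 14.6%, or 9.93% and 4.7%), both against the same vehicle samples in a fit with the replicate as a block. Losses were thus most of the early calls, 7.61% of members against 1.22% for gains. With only 2 replicates these counts move: without replicate R4 they were 25 and 32 (3.4 and 4.35%, against 3.74 and 4.85% of all REs), and without the block 0 and 5 (0 and 0.679%, against 0 and 0.64%). By class, the early losses were 18 of 170 REs at transmembrane, 14 of 163 at fibrillar, 9 of 87 at basement membrane, 5 of 107 at fibril-associated, 3 of 48 at multiplexin, 1 of 37 at short-chain and 1 of 50 at type VI collagens. There were 5 of 58 at COL26A1 with COL28A1 and 0 of 16 at COL7A1. Of the members placed within 1 kb of a start site of their own gene, 2 were called at 3 h and both were gains.

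The early values of the REs with the largest losses were as follows. COL13A1-RE3 stood at 38.9 and 22 CPM in the vehicle samples (R4, R5), 6.46 and 5.4 CPM at 3 h and 3.84 and 3.76 CPM at 24 h. COL3A1-RE8 stood at 35.1 and 30.4 CPM, then 7.73 and 8.61 CPM, then 10.5 and 8.89 CPM. COL18A1-RE17 stood at 47.6 and 35.6 CPM, then 16.2 and 11 CPM, then 7.95 and 9.53 CPM. In all of them both replicates had lost most of the signal by 3 h, COL3A1-RE8 did not fall further, and COL18A1-RE17 did. The log2 fold changes at 3 h were −2.38 ± 0.14, −2.06 ± 0.11 and −1.69 ± 0.13 (adjusted p = 1.9e-09, 5.4e-10 and 2.5e-08, edgeR). COL25A1-RE34 and COL28A1-RE15 had the largest early losses, −3.06 ± 0.21 and −2.98 ± 0.26. WT cells showed no such loss, with COL13A1-RE3 at 43.3 and 32.9 CPM under vehicle and 43.7 and 33.7 CPM at 3 h.

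Of the 113 REs that fell at 48 h in the dose series, 46 were called lower at 3 h in the time course (40.7%, against 43.3% for all REs that fell) and 53 at 24 h (46.9%, against 60.1%). Of the 78 that rose, 2 were called higher at 3 h (2.56%, against 1.61%) and 24 at 24 h (30.8%, against 26.2%). The sign was already that of 48 h at 3 h for 77 of the 113 (68.1%, against 76% for all REs that fell) and 63 of the 78 (80.8%, against 64.9% for all that rose). The 46 early losses had a median log2 fold change of −0.97 at 48 h and a median ED50 of 27%, and the other 67 had −0.50 and 13.5% (all REs: −1.11 and 29.8%, −0.53 and 12.4%). A SOX core was in 71.7% of the 46 and in 44.8% of the 67 (all REs: 78.1% and 53.1%). The median GC content was 42% in the 46 and 57.5% in the 67, a wider gap than the 45.1% and 50.9% of all REs. The members differ in length and base composition, which also set how often a motif occurs.

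Early and late losses were divided among the genes. At COL25A1 9 of 15 losses were already called at 3 h, at COL5A2 3 of 3 and at COL24A1 3 of 3. At COL18A1 this held for 2 of 10, at COL13A1 for 2 of 11 and at COL7A1 for 0 of 6. At COL5A1 the 3 REs lower at 48 h all had a positive log2 fold change at 3 h.

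A few REs rose at 3 h and were lower by 48 h. COL27A1-RE9, in an intron of the minor fibrillar collagen gene COL27A1 (chr9:114163356-114163856), was at 14.1 and 10.7 CPM under vehicle and 21.2 and 15.3 CPM at 3 h (log2 fold change 0.49 ± 0.10, adjusted p = 0.0027, edgeR). After 48 h it was at 12.9, 16.5 and 20.4 CPM untreated and 8.76, 13.4 and 17.1 CPM treated, which overlapped (−0.39 ± 0.09, adjusted p = 0.0018, edgeR). COL26A1-RE35 showed the same order with smaller values (0.31 and −0.20). Both early calls were lost when either replicate of the time course was left out, and the late call at COL26A1-RE35 was lost when any of 5 of the 7 replicates was. The other early gains among those with the lowest p were COL5A1-RE6 (0.46), COL6A1-RE17 (0.56) and the promoter RE of COL7A1, COL7A1-RE7 (0.56), which were likewise lost without either replicate and were not called at 48 h. At 24 h the gains with the lowest p were COL16A1-RE18 (0.48), COL13A1-RE9 (0.64), COL6A2-RE2 (0.74), COL14A1-RE16 (1.00) and COL13A1-RE21 (0.60). All 5 were also higher at 48 h, where the call at COL13A1-RE21 was lost without S9CC13_R13 or S9CC47_R8, and all 5 calls at 24 h were lost without replicate R4.

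**Figure D4:**
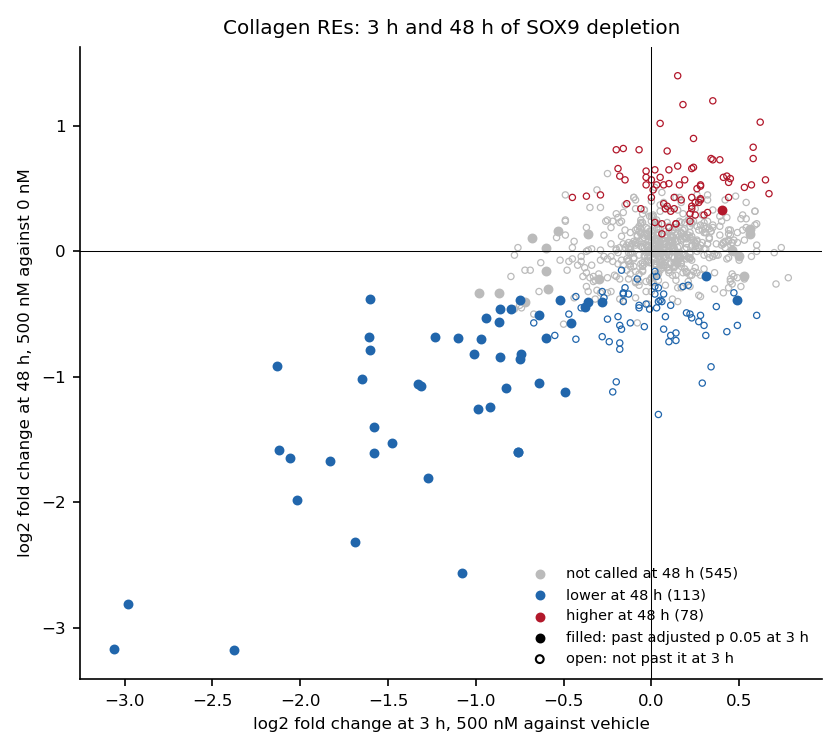
Log2 fold change at 3 h in the time course (horizontal axis) against that at 48 h in the dose series (vertical axis) for each of the 736 member REs. Blue points fell at 48 h (113), red points rose (78) and grey points were not called (545), filled points were also past an adjusted p of 0.05 at 3 h, and most filled points are in the lower left, while the red points lie near 0 on the horizontal axis.

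WT cells show what the compound did without tagged SOX9. No member was called in WT cells at 3 h or 24 h by edgeR or DESeq2 (background 0% at both). At an unadjusted p under 0.05 edgeR gave 12 and 19 of the 736 members, against 3656 and 4642 of all 151457 REs. At 48 h 4 were called, 3 lower and 1 higher (0.543%, background 0.303%). COL26A1-RE12 fell from 12.8 and 26.1 CPM (WT_R8, WT_RSh) to 9.54 and 19.6 CPM (−0.43 ± 0.09, adjusted p = 0.0023, edgeR) and COL23A1-RE49 from 14.3 and 9.31 to 9.73 and 7.03 CPM (−0.49 ± 0.10, adjusted p = 0.0032, edgeR), and both were lower in 2 of 2 replicates. COL6A3-RE15 fell by 0.72 ± 0.17 and COL16A1-RE2 rose by 0.48 ± 0.12, the last mostly in WT_RSh (4.04 and 7.86 CPM, against 5.6 and 5.7 in WT_R8). None of the 4 was called in tagged cells at 500 nM, and 0 remained by DESeq2, without the block, or without either replicate.

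The difference between tagged and WT effects was tested directly. It passed for 36 members at 3 h (34 lower in tagged cells, 2 higher; 4.89%, background 5.2%, or 5.13% and 0.072%), 42 at 24 h (37 and 5; 5.71%, background 6.73%, or 6.28% and 0.45%) and 93 at 48 h (51 and 42; 12.6%, background 10.8%, or 7.29% and 3.56%). Of the 113 REs that fell in tagged cells at 48 h, 50 also differed from WT cells (44.2%, against 51.8% for all REs that fell), and of the 78 that rose, 35 did (44.9%, against 31.7%), while 0 of either were called in WT cells. The 3 h and 24 h counts fell to 20 and 26 without tagged replicate R4 (2.72 and 3.53%, against 2.92 and 3.81% of all REs). The 48 h count fell to 35 without WT_R8 and 49 without WT_RSh (4.76 and 6.66%, against 4.87 and 5.62%).

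**Figure D5:**
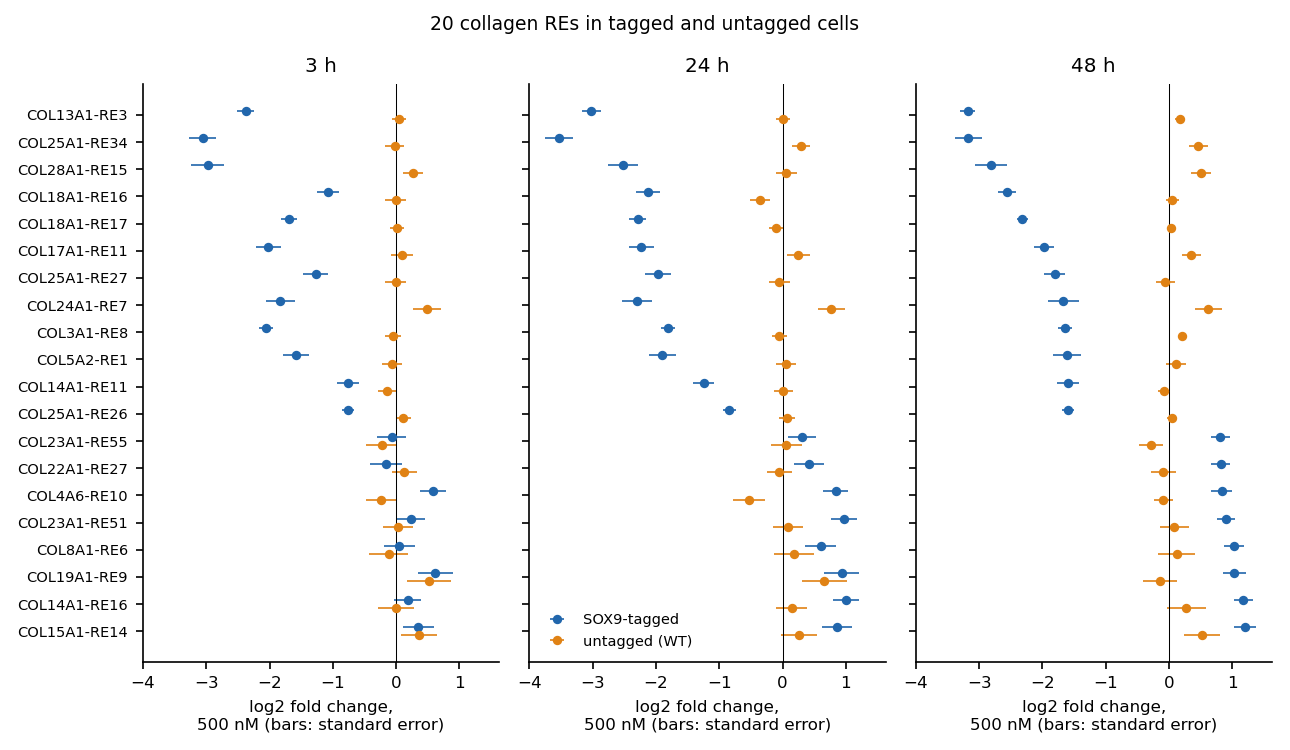
Log2 fold change at 500 nM after 3 h, 24 h and 48 h (panels, bars are standard errors) in SOX9-tagged cells (blue) and untagged WT cells (orange). Shown are the 12 REs with the largest losses and the 8 with the largest gains at 48 h among those named. The 12 lower REs are negative in tagged cells in every panel and near or above 0 in WT cells at 48 h, and the 8 higher REs separate from WT cells only in part.

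No difference between the clones was detected. A difference between the effects of S9CC13 and S9CC47 at 500 nM was called at 0 members by edgeR and by DESeq2 (background 0%). The clones had 4 and 3 replicates, and the lowest adjusted p was 0.396 by edgeR. At an unadjusted p under 0.05 edgeR gave 60 of the 736 members, against 9773 of all 151457 REs. Leaving out S9CC13_R6 or S9CC47_R5 gave 1 call each, COL13A1-RE43 and COL16A1-RE2 (0.136%, against 0.135 and 0.181% of all REs).

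Other short sequences were counted on both strands for context. CAGATG, an E-box of the kind TWIST1 binds, was in 61.1% of the members that fell, 42.3% of those that rose and 49.6% of all members (54.9, 45.6 and 44.3% in the whole table). The AP-1 sequence TGANTCA was in 30.8% of the members that rose and 13.3% of those that fell (27.9 and 15.9%). GCCNNNGGC, bound by TFAP2 proteins, was in 28.9% of all members and 17.4% of the 46 early losses (27.1 and 21.1%), and AGGTCA, bound by nuclear receptors such as NR2F1, was in 42.5% of those that fell and 34.5% of all members (42.5 and 36.2%).

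REs of genes that act with collagens were counted by the same rule. At the 6 cartilage collagens (COL2A1, COL9A1, COL9A2, COL9A3, COL11A1 and COL11A2) 21 REs fell and 3 rose of 82 at 500 nM (29.3%, background 24.1%, or 13.9% lower and 10.2% higher). Among them the promoter RE COL9A3-RE17 fell by 1.55 ± 0.16. At 3 h, 10 fell and 1 rose of the 82 (13.4%, background 8.34%). At genes for collagen processing and receptors 83 fell and 57 rose of 627 (22.3%, background 24.1%), and at 3 h 31 fell and 8 rose (6.22%, background 8.34%).

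At ITGA11, a subunit of a collagen-binding integrin of mesenchymal cells, 12 of 26 REs fell and 0 rose, with ITGA11-RE16 at −2.82 ± 0.11. At ITGA1, the subunit of another collagen-binding integrin, 3 fell and 4 rose of 20, and the intronic ITGA1-RE12 (chr5:52868379-52868879) had −4.82 ± 0.18 (adjusted p = 6.8e-16, edgeR), beyond any member. ITGA2, also a subunit of a collagen-binding integrin, had 4 higher of 8 and none lower. Of the propeptide proteases, ADAMTS2 had 7 lower of 37 (ADAMTS2-RE9, −2.67 ± 0.22). Of the enzymes that modify or cross-link chains, COLGALT2-RE13 (−3.32 ± 0.28), P4HA2-RE21 (−2.50 ± 0.14) and P3H1-RE15 (−2.06 ± 0.13) fell, while at LOX 5 of 7 REs and at P3H2 7 of 25 rose and none fell. These lists and their members were chosen with earlier results in view, so the counts are a description.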

How the data were processed

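The authors deposited raw read counts of ATAC-seq fragments in 151457 reproducible peaks (hg38) for 58 samples. Per the labels, the submitters' processing notes name Bowtie2 2.4.1, SAMtools 1.10, MACS2 2.2.7.1, deepTools 3.5.0 and bedtools, without their settings. All count columns mapped to a sample. For S9CC13_R14 the concentration labels of the 0 and 0.5 nM samples are swapped against their titles, while the SOX9 level labels (100 and 77.9%) match the titles, which set the dose. Tagged time-course columns of R5 name clone S9CC47 where the labels give S9CC13, and were matched by batch, treatment and time. CPM were computed here from TMM-scaled library sizes. Counts were tested with edgeR 4.0.16 (R 4.3.3) quasi-likelihood fits over all REs with no filter. The dose series had differentiation batch as covariate, and the time course and WT cells the replicate as block. Alternatives were DESeq2 1.42.0, other scaling, filtering, windows, blocks and left-out samples. The counts give no fragment identities, so PCR copies cannot be seen.

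Samples of 1 replicate, which share clone and differentiation, deviated together from their group means (correlation of at least 0.54 for 0 and 500 nM, at least 0.17 at other doses), so the replicate names pair the samples. The least different pair of samples of one group, of 134, had a reduced chi-square of 2.60, so none was a copy of another.

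REs were named by rule: the promoter RE of each gene, the 12 largest losses and 8 largest gains at 500 nM (same direction in all 7 replicates, mean count of at least 30), the 3 highest and 3 lowest ED50 among REs lower at 500 nM and 3 h, the 5 lowest p per direction at 3 h and 24 h, and those called in WT cells. The mean count in this rule was that of the tagged 0 nM samples. REs named outside this rule were chosen after their values were seen. ED50 came from a Hill curve in SOX9 level, searched from 0.5 to 300%, on batch-adjusted CPM. The fits were tested on simulated data. The members and lists were chosen with earlier results of these data known.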

Additional observations from a re-analysis of the deposited data

Results flagged for a closer look

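COL25A1-RE34 at 500 nM had a sample far from the rest of its group: S9CC47_R5 stood at 1.12 CPM, while the median of the 7 samples was 0.296 CPM. Dixon's test was applied to 48 groups and marked this one, and chance marks about 1 group in 20. The sample was still under every untreated sample.

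The effect of dTAGV-1 differed between tagged and WT cells, by an interaction test, at 36 member REs after 3 h, at 42 after 24 h and at 93 after 48 h. The background among all REs was 5.2, 6.73 and 10.8%.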

How the results depend on the processing

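At 500 nM after 48 h, the 12 largest losses kept their direction and call in 144 of 144 alternatives (log2 fold change −3.32 to −1.43), and the 8 largest gains in 95 of 96 (0.74 to 1.32), the exception being COL4A6-RE10 without the batch term (adjusted p = 0.1, edgeR). Of the 12 losses, some lost the 3 h call without the block, where edgeR gave adjusted p = 0.082 for COL13A1-RE3, 0.31 for COL25A1-RE34 and 0.11 for COL18A1-RE17 at 3 h. No result changed direction. Without batch or block, the members called were 76 at 500 nM, 37 at 16 nM and 4 at 5 nM (10.3, 5.03 and 0.543%, against 9.97, 5.1 and 1.42% of all REs). With the replicate block, they were 202 at 16 nM, 68 at 5 nM and 8 at 1.6 nM, and 254 at 500 nM (27.4, 9.24, 1.09 and 34.5%, against 26.1, 8.53, 1.03 and 30.6%). This block, warranted by the pairing of samples, moved no other dose count by over 1.5 times. Without the replicate block, the time course gave 0 at 3 h and 5 at 24 h (0 and 0.679%, against 0 and 0.64% of all REs). The tagged and WT difference then gave 3 and 7 (0.408 and 0.951%, against 0.452 and 1.05%), and WT cells 0 at 48 h. DESeq2 gave 1 at 1.6 nM and 42 in tagged cells at 3 h (0.136 and 5.71%, against 0.236 and 5.63%), and 0 in WT cells at 48 h. A window of 100 kb gave 1 at 1.6 nM (background 0.0383%). Leaving out one replicate gave 161 to 223 at 500 nM (21.9 to 30.3%, against 20 to 26.4% of all REs) and 95 to 171 at 16 nM (12.9 to 23.2%, against 11.6 to 22.1%). It also gave 21 to 95 at 5 nM (2.85 to 12.9%, against 3.47 to 11.4%). At 1.6 nM and at 0.5 nM it gave 0 to 4 (0 to 0.543%, against 0 to 0.646% and 0 to 0.657%). In tagged cells at 3 h it gave 25 to 48 (3.4 to 6.52%, against 3.74 to 5.6% of all REs). At 24 h it gave 32 to 69 (4.35 to 9.38%, against 4.85 to 8.77%). In WT cells it gave 0 at 48 h. For the tagged and WT difference it gave 20 to 36 at 3 h (2.72 to 4.89%, against 2.92 to 5.43%). The 24 h difference gave 26 to 44 (3.53 to 5.98%, against 3.81 to 6.05%) and the 48 h difference 35 to 100 (4.76 to 13.6%, against 4.87 to 11.3%). The clones gave 0 to 1 (0 to 0.136%, against 0 to 0.181%). The cause of these changes was not tested. The median ED50 was 16 on log2 CPM and 16.7 to 21.6 with one replicate left out. Of 35 named REs at 500 nM, 13 lost the call without the batch term. The median count of a member RE per sample was 61 to 242.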
